A study of Mus musculus with 2 samples.

Results

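Collagen VI, elastic fibre and microfibril genes were read from RNA-seq of adherent liver cells of Foxf1 fl/fl mice (wild-type, here called control) and αSMACreER;Foxf1 fl/fl mice (here called knockout). The 10 genes were picked by name for their place in these fibres, with no threshold on their values. Earlier results of these data were known when they were picked. All 10 were found among the 36458 genes with a symbol in both tables. They are the collagen VI chains Col6a1, Col6a2 and Col6a3, elastin (Eln), fibrillin (Fbn1), the microfibril partner Mfap5 and the fibulins Fbln1, Fbln2, Fbln5 and Efemp2. Adult C57/Bl6 males, 6 to 8 weeks old, were treated with the hepatotoxin carbon tetrachloride (CCl4) for 5 weeks. Both genotypes carried the floxed Foxf1 alleles, and only the knockout carried the αSMACreER transgene, which deletes Foxf1 in cells that express smooth muscle actin once tamoxifen is given. Tamoxifen was injected in each week of the CCl4 course from week 2 onwards. Cells that stuck to culture dishes within 2 hours were collected as the stromal population, and samples were pooled into 1 library per genotype. Every value below is therefore a single measurement without a replicate, and no difference between the genotypes could be tested.

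Collagen VI forms beaded microfilaments around cells. An α1, an α2 and an α3 chain fold into one trimer, and the α4, α5 and α6 chains can take the place of α3. Elastic fibres have a core of crosslinked elastin laid on a scaffold of fibrillin microfibrils, and fibulins link elastin, fibrillin and the crosslinking enzymes. In liver these proteins are made mainly by stellate cells, portal fibroblasts and the myofibroblasts that arise from them, and they accumulate in fibrous septa.

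Levels are given as FPKM, the mapped fragments per kilobase of transcript relative to library depth, as the authors deposited them, so genes can be compared per length. The files used here hold no read counts. About 9.82e+06 mapped reads were estimated for control and 1.131e+07 for knockout from the spacing of low values, although only 52.6% and 53.8% of those values lay within 0.1 of a whole read. The 95% intervals below come from these rough read numbers and cover counting error only. Knockout values were divided by 1.02 before fold changes were taken, and log2 fold changes are log2(FPKM + 0.1) of knockout minus control, a scale that understates changes of low genes. A difference of 1.5-fold serves as a measure of size here and not as a test. Foxf1 itself was not analysed here.

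All 10 genes had a higher scaled level in knockout than in control, and Fbn1 and Col6a3 stood apart from the others by size. The log2 fold changes ran from 0.10 for Mfap5 to 1.55 for Fbn1 with a median of 0.39. A filter kept genes whose FPKM averaged 1 or more over both libraries, which left 9 of the 10, all but Fbln5. Their median was 0.42, against 0.0049 over all 12670 genes that were kept. Of the 9 genes, 2 were at least 1.5-fold higher and 0 were at least 1.5-fold lower, where 12.8% of all genes tested were higher by that much and 13.2% were lower. A level above control by any amount was seen for 50.3% of all genes tested. The counting interval lay above 0 for 8 of the 10 genes, all but Fbln5 and Mfap5. With read numbers placed on the median annotated transcript in place of the longest it lay above 0 for 5, namely the collagen VI chains, Eln and Fbn1. The share of all genes with an interval above 0 was not computed, so these counts have no background beside them. Both at least 1.5-fold higher and with an interval above 0 were 2 members, and 11.8% of all genes tested.

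**Figure D1:**
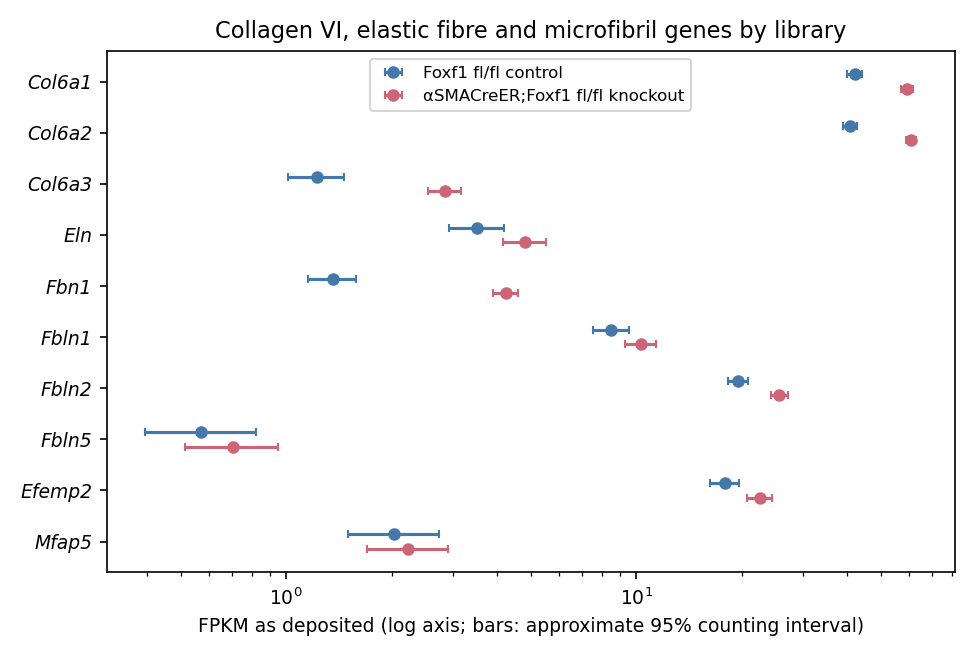
FPKM of each gene (log axis) in the Foxf1 fl/fl control library and the αSMACreER;Foxf1 fl/fl knockout library, 1 library each, with approximate 95% counting intervals as bars. Fbn1 stood at 1.36 and 4.24 and Col6a3 at 1.22 and 2.84, while the intervals of Eln, Fbln1, Fbln5 and Mfap5 overlapped between the libraries.

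In both libraries Col6a1 and Col6a2 were the highest of the 10 genes and Fbln5 the lowest. In control the order by FPKM was Col6a1, Col6a2, Fbln2, Efemp2, Fbln1, Eln, Mfap5, Fbn1, Col6a3 and Fbln5. Neighbours with overlapping counting intervals were Col6a1 and Col6a2, Fbln2 and Efemp2, Mfap5 and Fbn1, and Fbn1 and Col6a3. In knockout Col6a2 stood first, and Fbn1 and Col6a3 both stood above Mfap5. There the intervals overlapped for Col6a2 and Col6a1, Fbln2 and Efemp2, Eln and Fbn1, and Col6a3 and Mfap5. The 10 genes together had an FPKM of 138 in control and 194 in knockout, of which the collagen VI chains made up 61.2% and 63.6%.

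The collagen VI chains differed widely from one another in level. Col6a1 (ENSMUSG00000001119, chromosome 10 from 76708792 to 76726168 of GRCm38, minus strand) had an FPKM of 42.1 in control and 59.4 in knockout. On the log2 scale this was a difference of 0.47 (counting interval 0.38 to 0.56). Col6a2 (ENSMUSG00000020241, chromosome 10 from 76595762 to 76623630, minus strand) had 40.8 and 61.0, with a log2 fold change of 0.55 (0.47 to 0.63). The α1 and α2 chain genes lie on one chromosome, and neither reached 1.5-fold. Col6a3 (ENSMUSG00000048126, chromosome 1 from 90765923 to 90843971, minus strand) encodes the largest of these chains and had only 1.22 and 2.84, from about 119 and 318 reads. Its log2 fold change was 1.13 (0.84 to 1.41), a ratio of 2.28.

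Since the chains assemble in equal numbers, their levels were set against Col6a1 within each library. Col6a2 had 0.969 of the Col6a1 level in control (counting interval 0.907 to 1.04) and 1.03 in knockout (0.974 to 1.08), so the α1 and α2 transcripts were at about the same level per length in both. Col6a3 had 0.0290 of the Col6a1 level in control (0.0241 to 0.0349) and 0.0478 in knockout (0.0425 to 0.0537). The Col6a3 transcript was thus 34.5 times lower than that of Col6a1 in control and 20.9 times lower in knockout. Fold changes moved with transcript length over all genes, as given below, and this trend was not removed from the ratios. The median log2 fold change was 0.49 in the length group of Col6a3 and 0.12 in that of Col6a1.

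The genes of the alternative chains were read because α4, α5 and α6 can replace α3. Col6a4 and Col6a6, which were under the filter, were named after their values were seen. Col6a5 had an FPKM of 9.79 in control and 23.0 in knockout, or 1.20 on the log2 scale (1.09 to 1.31), and stood above Col6a3 in both libraries. Col6a6 had 0.369 and 0.858, with a log2 fold change of 1.01 (0.52 to 1.49). The ratios of knockout to control were close in value for these genes, at 2.31 for Col6a5, 2.28 for Col6a6 and 2.28 for Col6a3. All of these belong to the group of genes with transcripts of 7777 bases or more, and with the median of that group subtracted Col6a5 had 0.71, Col6a3 had 0.64 and Col6a6 had 0.52, the last no longer past 1.5-fold. Col6a4, which lies on chromosome 9 with Col6a5 and Col6a6, had 0.0653 in control, from about 5 reads, and 1.56 in knockout, from about 126 reads. Its log2 fold change was 3.30 (2.73 to 3.87) and its plain ratio 23.4, which lies above that interval. The control value is under the 0.1 added, so the interval is narrower than about 5 reads allow. Summed over the genes that can supply the third chain, the FPKM was 11.4 in control (10.8 to 12.2) and 28.3 in knockout (27.2 to 29.3). That sum was 0.272 of the Col6a1 level in control (0.251 to 0.294) and 0.475 in knockout (0.451 to 0.501). Col6a5 made up 85.5% of it in control and 81.4% in knockout. The length trend was not removed from this sum or from its ratio to Col6a1.

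**Figure D2:**
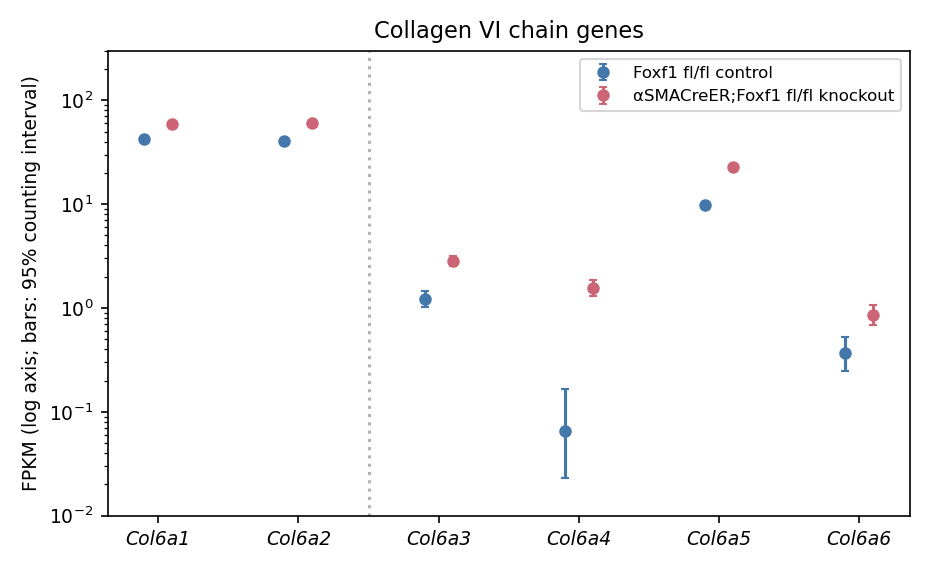
FPKM (log axis) of the 6 collagen VI chain genes in the control and the knockout library, with 95% counting intervals as bars and a dotted line between the α1 and α2 genes and those of the chains that can take the third place. Col6a1 and Col6a2 stood at 42.1 and 40.8 in control and at 59.4 and 61.0 in knockout, and Col6a5 was the highest of the other 4 in both libraries.

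Sequence upstream of the collagen VI members is shown because their transcripts were at such different levels although the proteins share a trimer. The 250 bases before the RefSeq start were searched on both strands for TGTTTA, the core of forkhead factor sites, for CAGACA, a SMAD-binding element, for TGANTCA, an AP-1 site, and for GGGCGG, a GC box. Matches to any of these are in capitals. Only bases outside annotated exons are printed, which leaves the far 126 bases for Col6a1. The stretches are chr10:76726169-76726294, chr10:76623631-76623880 and chr1:90843972-90844221 of GRCm38.p6, all on the minus strand and written 5′ to 3′.
Col6a1: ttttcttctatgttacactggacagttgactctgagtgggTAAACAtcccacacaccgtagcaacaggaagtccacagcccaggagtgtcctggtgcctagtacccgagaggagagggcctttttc
Col6a2: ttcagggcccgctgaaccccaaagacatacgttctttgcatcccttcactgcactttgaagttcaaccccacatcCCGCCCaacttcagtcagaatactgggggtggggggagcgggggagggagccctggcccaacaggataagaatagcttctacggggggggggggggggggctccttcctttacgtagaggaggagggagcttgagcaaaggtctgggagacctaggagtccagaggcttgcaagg
Col6a3: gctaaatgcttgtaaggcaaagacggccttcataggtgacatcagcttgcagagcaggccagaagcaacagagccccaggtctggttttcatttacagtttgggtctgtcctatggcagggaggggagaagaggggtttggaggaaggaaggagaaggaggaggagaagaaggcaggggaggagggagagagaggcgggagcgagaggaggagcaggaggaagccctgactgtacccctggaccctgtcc
Col6a1 held 1 forkhead core, written as its reverse complement, and 1 AP-1 site, which lay in the bases not printed. Col6a2 held 1 GC box, and Col6a3 held none of the letters searched. Among 32851 windows of 250 bases before RefSeq starts, 12.0% held the forkhead core, 17.1% the SMAD element, 6.75% the AP-1 site and 32.7% the GC box. A promoter window was found for 8 of the 10 genes, and Col6a1 was the only one of the 8 with a forkhead core.

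Eln (ENSMUSG00000029675, chromosome 5 from 134702593 to 134747323, minus strand) encodes tropoelastin, the soluble precursor that is crosslinked into the core of the elastic fibre. It had an FPKM of 3.51 in control and 4.81 in knockout, from about 126 and 199 reads. The log2 fold change was 0.42 (0.10 to 0.73), and the intervals of the levels just met, with an upper bound of 4.18 in control and a lower bound of 4.17 in knockout. Elastin was thus a transcript of low level in these cells, and its difference between the libraries did not reach 1.5-fold.

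Of the microfibril genes, Fbn1 was past 1.5-fold and Mfap5 was not, and the counting intervals of their log2 fold changes did not overlap. Fbn1 (ENSMUSG00000027204, chromosome 2 from 125300594 to 125507993, minus strand) encodes fibrillin, which polymerizes into the microfibril itself and holds latent TGF-β complexes in the matrix. It had an FPKM of 1.36 in control and 4.24 in knockout, from about 157 and 565 reads. This was the widest difference of the 10 genes, with a log2 fold change of 1.55 (1.31 to 1.79) and a ratio of 3.06. Among all genes tested Fbn1 stood at percentile 7.30 of FPKM in control and at 28.9 in knockout. Mfap5 (ENSMUSG00000030116, chromosome 6 from 122505845 to 122529290, plus strand) encodes a small glycoprotein that binds fibrillin. It had 2.04 and 2.23, from about 46 and 58 reads, and its log2 fold change of 0.10 had an interval from −0.44 to 0.63. At this depth no difference in Mfap5 was detectable, and a change of 1.5-fold upwards lies inside that interval.

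No sequence is printed for Fbn1, because its RefSeq start lies 1555 bases from the outermost start in GENCODE and all 250 bases before it fell in an annotated exon. That window held 1 GC box and none of the other letters searched. The bases G and C made up 59.2% of it, against a median of 52.4% over all windows. Fbn1 shares 2793 bases with Gm9913 on the opposite strand, which was listed at 0 in both libraries.

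The fibulins were all higher in knockout by less than 1.5-fold. Fbln2 (ENSMUSG00000064080, chromosome 6 from 91212455 to 91272540, plus strand) encodes a protein that joins elastin and fibrillin to basement membranes and is known as a product of portal fibroblasts. It had an FPKM of 19.6 in control and 25.6 in knockout, with a log2 fold change of 0.36 (0.24 to 0.48). Efemp2 (ENSMUSG00000024909, chromosome 19 from 5473954 to 5482517, plus strand), a fibulin needed for lysyl oxidase to reach elastin, had 17.9 and 22.5, with a log2 fold change of 0.30 (0.13 to 0.48). These were the highest fibulins in both libraries. Fbln1 (ENSMUSG00000006369, chromosome 15 from 85205949 to 85286535, plus strand), which binds elastin and fibronectin, had 8.48 and 10.3, with a log2 fold change of 0.25 (0.04 to 0.47). Fbln5 (ENSMUSG00000021186, chromosome 12 from 101746565 to 101819055, minus strand), which tethers elastin to cells and to its crosslinking enzymes, had 0.570 and 0.705 from about 32 and 45 reads. Its log2 fold change of 0.24 had an interval from −0.32 to 0.81, so no difference was detectable. With read numbers on the median transcript the intervals of Fbln1 (−0.03 to 0.53), Fbln2 (−0.02 to 0.74) and Efemp2 (−0.04 to 0.65) also reached 0. Efemp2 shares 173 bases with Mus81 on the opposite strand, which had 11.1 in control and 8.93 in knockout, and the counting is not stated to have used strand.

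Transcript length moved with the fold change over all genes, and the members past 1.5-fold were the longest of the 10. The genes tested were placed in 20 groups by their longest annotated transcript. The median log2 fold change was −0.41 in the group from 553 to 982 bases and 0.49 in the group from 7777 bases upwards, in which 38.6% of genes were at least 1.5-fold higher. Fbn1, at 11971 bases, and Col6a3, at 10106 bases, both belonged to that last group. Of the 633 other genes there, 6 had a log2 fold change as high as Fbn1 or higher, and 44 one as high as Col6a3. With the median of each length group subtracted Fbn1 had 1.06 and Col6a3 had 0.64, still past 1.5-fold, where 9.94% of all genes were. Col6a1 and Col6a2 had 0.35 each on this scale, Efemp2 had 0.36 and Eln had 0.32, while Fbln2 and Fbln1 both had 0.16 and Mfap5 had 0.19. Fbln5 changed direction to −0.09. The median of the 9 genes was 0.35 with the trend removed. The part of transcript length in these differences was not tested.

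**Figure D3:**
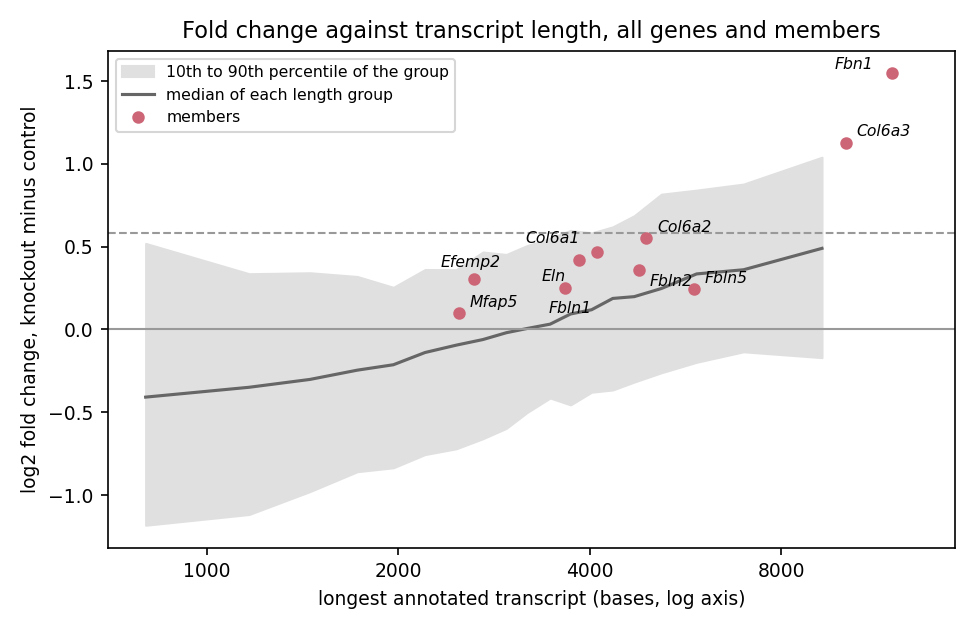
Log2 fold change of knockout against control (vertical axis) by longest annotated transcript in bases (log axis), with the 10 genes as points, the median of each length group of all genes as a line and the 10th to 90th percentile of each group in grey. The group of the shortest transcripts is not drawn and the dashed line marks 1.5-fold. Fbn1 (1.55) and Col6a3 (1.13) lie above 1.04, the 90th percentile of the group of longest transcripts.

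The scaling between the libraries changed how many members passed 1.5-fold. When both libraries were scaled to the same summed FPKM, the median of all genes was 0.20, with 5 of the 9 members past 1.5-fold, namely Col6a1, Col6a2 and Eln beside Fbn1 and Col6a3. Under it 21.5% of all genes were past 1.5-fold, and 2757 genes were higher and 1144 lower, against 1616 and 1675 with the median ratio. The median of the members was 0.61 there, which is above the shift of all genes. Scaling to the summed stellate cell and myofibroblast markers moved the median of all genes to 0.11, with 2190 genes (17.2%) higher and 1345 lower. It put 3 members past 1.5-fold, Col6a2 beside Fbn1 and Col6a3. Of the members, Fbn1 and Col6a3 passed 1.5-fold under each scaling tried and after removal of the length trend.

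**Figure D4:**
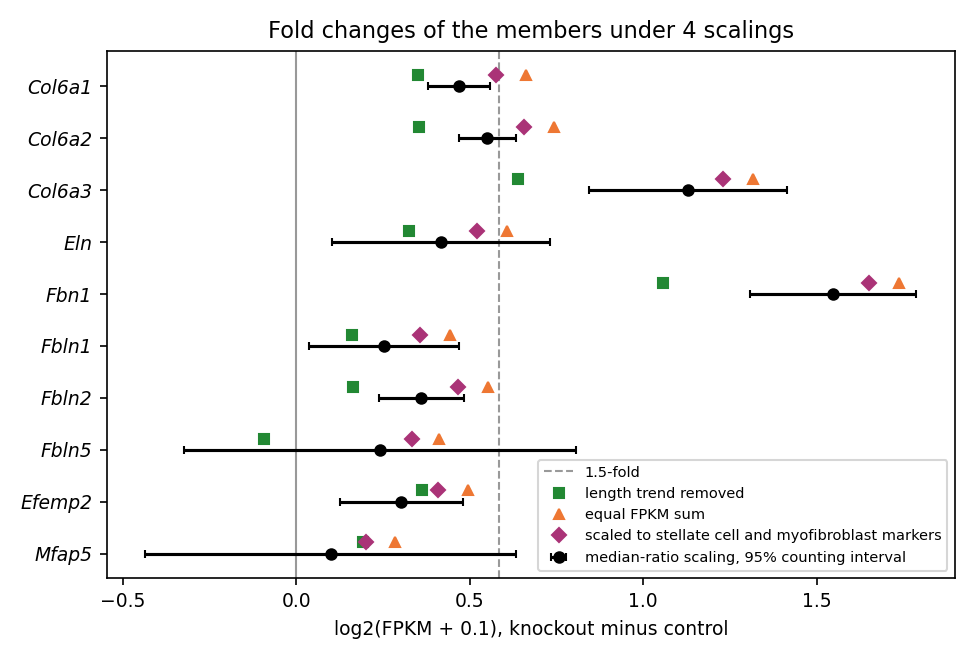
Log2 fold change of knockout minus control for each gene with median-ratio scaling (black, with 95% counting interval), with the length trend removed, with an equal FPKM sum and with scaling to the summed stellate cell and myofibroblast markers. Fbn1 and Col6a3 stay right of the dashed 1.5-fold line in all 4, and Fbln5 is left of 0 with the length trend removed.

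Partners of these genes were read from lists chosen by function. Of 10 collagen VI partners and further chains, 5 were kept by the filter. In knockout 2 of these reached 1.5-fold upwards, 0 reached it downwards and the median log2 fold change was 0.53. Over all genes tested 12.8% were higher by that much and 13.2% lower. Besides Col6a5, the higher gene was Antxr1, a cell surface receptor that binds collagen VI, with an FPKM of 1.25 in control and 2.61 in knockout, or 0.98 on the log2 scale (0.58 to 1.38). Dcn, the proteoglycan decorin and the most abundant of the list, had 127 and 186, or 0.53 on the log2 scale (0.48 to 0.58).

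The fibrillin and latent TGF-β binding list had a median below 0. Of its 12 genes 10 were kept, of which 2 reached 1.5-fold upwards and 1 downwards, and the median was −0.12. These counts stand beside 12.8% higher and 13.2% lower over all genes tested. Tgfb2, a TGF-β ligand kept in the matrix by these proteins, was higher with 1.67 and 2.73, or 0.65 on the log2 scale (0.28 to 1.02), which became 0.40 with the length trend removed. Mfap4, a microfibril protein that binds elastin, had 0.529 and 2.26, from about 8 and 40 reads, or 1.89 on the log2 scale (0.95 to 2.82). Mfap2, which like Mfap5 binds fibrillin, was lower with 2.43 and 0.133, from about 21 reads and 1 read, or −3.46 on the log2 scale (−4.98 to −1.94). Both rest on few reads, and each passed the filter through the library in which it was high. Tgfb1, the most abundant of the list, had 237 and 204, or −0.24 on the log2 scale (−0.30 to −0.19).

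The lists of other fibulins, of lysyl oxidases and of ADAMTS-like proteins had medians above 0, as the members did. For the counts past 1.5-fold below, the share over all genes tested was 12.8% upwards and 13.2% downwards. Of 10 further fibulins, hemicentins, EMILINs and related proteins, 6 were kept, 1 reached 1.5-fold upwards, 0 downwards, and the median was 0.33. The higher gene was Hmcn1, a very large fibulin family protein, with 1.87 and 3.40, or 0.80 on the log2 scale (0.62 to 0.99). Emilin2, the most abundant, had 81.7 and 84.5, or 0.02 on the log2 scale (−0.05 to 0.09). All 5 lysyl oxidases, the enzymes that crosslink elastin and collagen, were kept and had positive log2 fold changes with a median of 0.36. On the log2 scale with 0.1 added, Lox alone was past 1.5-fold, with 6.67 and 10.4 and a log2 fold change of 0.61 (0.41 to 0.81). Of 7 ADAMTS and ADAMTS-like genes 5 passed, 1 was higher, 0 were lower and the median was 0.34. That gene was Thsd4, whose product binds fibrillin and promotes microfibril assembly, with 1.11 and 3.16, or 1.41 on the log2 scale (1.10 to 1.72). Adamtsl5, the highest by the mean of both libraries, had 4.23 and 5.72, or 0.40 on the log2 scale (0.12 to 0.68). With the length trend removed Hmcn1 had 0.31 and Lox 0.41, no longer past 1.5-fold, and Thsd4 had 0.92. The median of the ADAMTS and ADAMTS-like genes was 0.0047 on that scale.

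Proteases that can degrade elastin were read as well. Of 11 genes 10 were kept, of which 0 reached 1.5-fold upwards and 3 downwards, and the median was −0.05. Over all genes tested 13.2% were lower by that much. The lower genes were the neutrophil granule proteases, of which Elane and Ctsg passed the filter only through the control library. Elane, neutrophil elastase, had 5.60 and 0.669, Prtn3 had 19.3 and 3.86, and Ctsg had 2.57 and 0.323. Their log2 fold changes were −2.91 (−4.01 to −1.82), −2.32 (−2.83 to −1.81) and −2.68 (−4.07 to −1.29), the last from about 20 and 3 reads. Ctss, a lysosomal protease abundant in macrophages, had 1771 and 1738, or −0.05 on the log2 scale (−0.08 to −0.03).

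**Figure D5:**
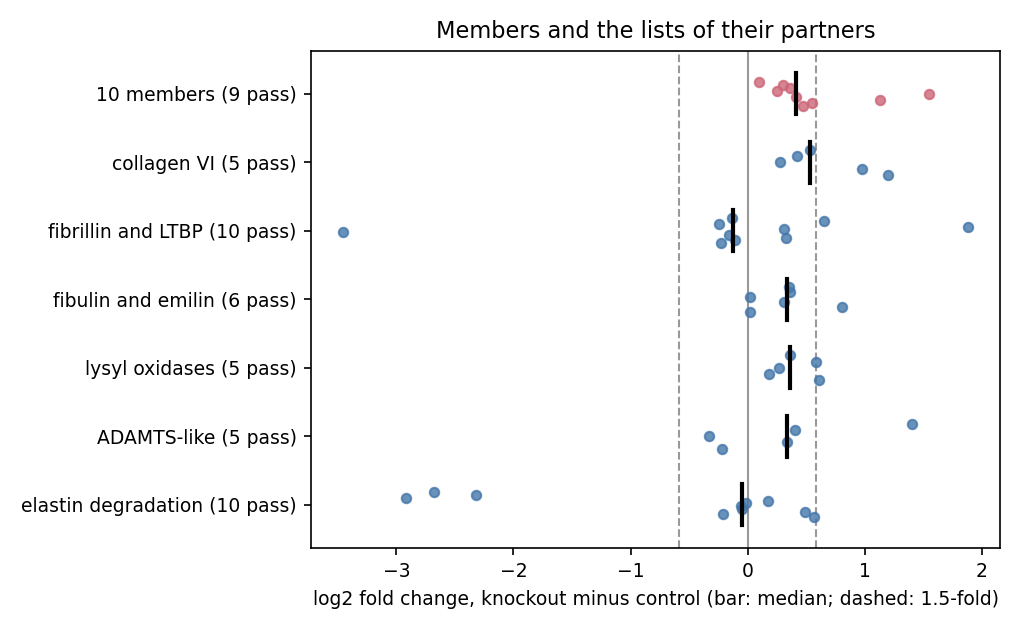
Log2 fold change of knockout minus control for the members and each list of partners, with 1 point per gene that passed the filter, a bar at the median and dashed lines at 1.5-fold in either direction. All 9 members that passed the filter lie right of 0, and the 3 neutrophil proteases lie left of −2 in the elastin degradation list.

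Markers of the cells that the libraries could hold were read beside the members, since in a bulk library fewer cells of a type and less RNA per cell cannot be told apart. Macrophage markers dominated, with a summed FPKM of 13357 in control and 11042 in knockout over 12 genes, of which 1 was at least 1.5-fold lower. Beside this and the marker counts below, 12.8% of all genes tested were higher by that much and 13.2% lower. The 15 stellate cell markers summed to 28.8 and 35.0, with 3 of 9 kept by the filter past 1.5-fold upwards and 0 downwards. Their median log2 fold change was 0.33 (0.25 with the length trend removed). Of their defining genes Lrat, with 0.0778 and 0.111, was near 0 and Gfap was listed at 0 in both libraries, while Des had 1.70 and 3.29. Reln, also under the filter and so outside that count, was lower in knockout, with 0.683 and 0.313, or −0.94 on the log2 scale (−1.38 to −0.50). The 10 myofibroblast and smooth muscle markers summed to 36.5 and 26.7, with 0 of 4 higher and 1 lower. Their median was −0.43 (−0.20 with the length trend removed). Acta2, smooth muscle actin, had 7.77 and 5.65, or −0.48 on the log2 scale, which became −0.27 with the length trend removed. The 13 portal fibroblast and mesothelial markers summed to 87.7 and 95.9, with 1 of 12 higher and 0 lower. Their median was 0.13 (0.20 with the length trend removed). The log2 fold changes of Fbn1 (1.55) and Col6a3 (1.13) were above that of Vipr1, 0.97, the highest of these mesenchymal markers kept by the filter. With the length trend removed Fbn1 (1.06) was still above all of them, while Col6a3 (0.64) was below Dpt (0.92), Des (0.91) and Vipr1 (0.78) and level with Hgf (0.64). Gfap, Reln, Vipr1, Dpt, Hgf and Spp1 were named after their values were seen. Endothelial markers summed to 976 and 933, with 1 of 10 higher, 0 lower and a median of 0.18 (−0.05 with the length trend removed). Cholangiocyte markers summed to 563 and 663, with 0 of 7 higher, 2 lower and a median of −0.29 (−0.15 with the length trend removed). Spp1 alone had 495 and 606 of that sum. All 10 hepatocyte markers were at least 1.5-fold lower and summed to 3706 and 1382. The part of these cells in the levels of the 10 genes was not tested.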

How the data were processed

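RNA of adherent liver cells was pooled within each genotype and sequenced as single-end reads of 75 bases. The authors used TopHat and Cufflinks and deposited 1 FPKM value per Ensembl gene and library. The submitters' processing notes name mm10, and the versions of TopHat and Cufflinks are not given in the sources used here. Of 38320 entries, 36490 had a symbol in GENCODE M21 (GRCm38). The 3 without status OK and 29 repeated symbols were left out. Knockout values were divided by the median ratio over 11871 genes. Read numbers assumed fragments of 200 bases (SD 80) on the longest transcript. Foxf1 is not reported here. Genes, lists and motifs were chosen with earlier results of these data known. The rule named all members, up to 4 genes of each partner list past 1.5-fold, its most abundant gene and the first 2 markers per cell type, of which Lrat, Des and Acta2 are given. The code was tested on simulated data. Alternatives concerned the pseudocount, scaling, filters, threshold, length trend and read numbers. Promoter windows came from RefSeq (GRCm38.p6). Python 3.11.15 was used with numpy 2.4.6, scipy 1.17.1, pandas 2.3.3 and matplotlib 3.10.9.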

Additional observations from a re-analysis of the deposited data

How the results depend on the processing

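No paired analysis was possible because the 2 groups held 1 library each, and no library could be left out. The number of members at least 1.5-fold higher was 2 and became 5 with an equal FPKM sum and 0 with a mean FPKM of at least 5, a filter that leaves out Fbn1 and Col6a3 and keeps 5 members. Over all genes the shares higher by that much were 21.5% with the equal sum and 7.97% with that filter. It was 3 with upper-quartile scaling (14.3% of all genes) and with scaling to the summed stellate cell and myofibroblast markers (17.2%). The number was 2 under the other alternatives, with shares from 8.51% with a pseudocount of 1 to 13.7% with values as deposited. A threshold of 2-fold also gave 2, and the share over all genes was not computed for it. No member was at least 1.5-fold lower under any alternative run. The median of the members ran from 0.35 with a pseudocount of 1 to 0.61 with an equal FPKM sum. Fbln5 reversed to −0.094 with the length trend removed by longest transcript, and no other member changed direction under any alternative. A length trend by median transcript, chosen after seeing the data, gave 1.21 for Fbn1 and 0.79 for Col6a3. With a pseudocount of 1, Fbn1 had 1.13 and Col6a3 had 0.77. Over all genes, 1616 were higher and 1675 lower, which became 2757 and 1144 with an equal FPKM sum, 3832 and 3225 without a filter, and 673 and 942 at a mean FPKM of at least 5. The ratios between collagen VI chains do not depend on scaling. The length trend was not removed from them. Low read numbers limit Fbln5 and Mfap5, whose intervals include 0, and Col6a4, Mfap2, Mfap4, Elane and Ctsg, each with under 10 estimated reads in 1 library.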

Other observations

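Among further genes of the same lists, the receptor Antxr2, which also binds collagen VI, had an FPKM of 11.2 in control and 13.8 in knockout, with a log2 fold change of 0.28 (0.13 to 0.43), against 0.98 for Antxr1. Ltbp4, a latent TGF-β binding protein with a role in elastic fibre assembly and the most abundant LTBP here, had 89.5 and 81.8, or −0.16 on the log2 scale (−0.21 to −0.10). Mmp12, macrophage elastase, had 221 and 316, or 0.49 on the log2 scale (0.45 to 0.53), while the neutrophil elastase gene was lower. Vcan, versican, a proteoglycan that binds fibrillin and fibulins, had 11.3 and 14.7, with a log2 fold change of 0.35 that became −0.14 with the length trend removed. Loxl3 had 3.37 and 5.19, a log2 fold change of 0.58 that lay just under 1.5-fold. It did so only through the 0.1 added to each value, since its plain scaled levels, 3.37 and 5.10, lie just past 1.5-fold. These genes were named after their values were seen.

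Within its own group of transcript length, each member was ranked against the other genes tested there. Fbn1 stood above 99.1% of 633 genes and Col6a3 above 93.0%. Col6a1, Col6a2, Eln and Efemp2 stood above 84.5%, 83.8%, 83.4% and 82.1% of theirs, and Mfap5, Fbln2 and Fbln1 above 71.5%, 69.8% and 68.5%. Fbln5 stood above 39.0% of its group and was the only member under the group's median.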
